A study of Secale cereale x Triticum turgidum subsp. durum with 48 samples.

Results

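Sucrose synthase was read in triticale with the 3 probe sets that the Affymetrix Wheat GeneChip carries as a control under the name Sucsyn, taken here as sucrose synthase. The 3 were found by the start of their IDs, AFFX-Ta_Sucsyn, and are AFFX-Ta_Sucsyn_3_at, AFFX-Ta_Sucsyn_M_at and AFFX-Ta_Sucsyn_5_at, for the 3 prime end, the middle and the 5 prime end of the transcript. They are 3 of the 61290 probe sets on the array and 3 of the 25 control probe sets made for 8 wheat genes. A probe set is a group of short probes whose signals are summarised as 1 value. All 3 read 1 transcript target on the same arrays, so they are not replicates of each other. Which of the homoeologous or related sucrose synthase genes of wheat and rye they detect is not given in the sources used here.

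Triticale is a cereal bred from durum wheat and rye, and the study surveyed its vegetative organs and the tissues of its developing seed. Each of 48 arrays held biotin-labelled RNA of 1 biological replicate after repeated amplification. Organ and Zadoks stage, which numbers the steps of cereal growth, define 16 groups. Plants were grown in a chamber, and the labels name no treatment. Seedlings of the cultivar AC Alta gave root and coleoptile (the tube that shields the emerging leaf) at stage 7, which was 7 days after sowing. All other groups came from AC Certa. They were leaf at stages 13 and 23, flag leaf (the last leaf below the ear) of stages 49, 75 (22 days after anthesis) and 85 (30 days after anthesis), and stem internodes from stages 21, 45, 59 and 75. Embryo, endosperm, crease (the groove that carries the seed's vascular strand), pericarp and epiderm were dissected from seed at stage 85. Flag leaf at stage 49 had 5 arrays, pericarp and epiderm had 2 each, and the other 13 groups had 3. RNA was extracted with a column kit from leaf, stem, crease and epiderm, with a further clean-up of the stem RNA. A guanidine hydrochloride buffer, again followed by a clean-up, was used for embryo, endosperm and pericarp, and guanidine isothiocyanate with a cesium chloride gradient for root and coleoptile. Whether plants were pooled is not stated in the labels, and p-values therefore reflect no more than the spread among these samples. Tissue labels could not be checked against marker genes, because the probe sets of such markers are not named in the tables used here.

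Sucrose synthase cleaves sucrose with UDP into UDP-glucose and fructose, in a reaction that can also run backwards. Plants use it mainly where imported sucrose is put to use, as in growing stems, roots and filling grain. Its UDP-glucose feeds the synthesis of cellulose and other cell wall polymers, and in cereal endosperm the synthesis of starch. The enzyme is also known from the companion cells of the phloem. Mature leaves make sucrose mainly through sucrose phosphate synthase, another enzyme. These are background and were not measured here.

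The Sucsyn transcript was bright in every organ at its 3 prime end and differed between organs. The highest group mean was that of stem at stage 45, 12.87 ± 0.159 (SD, n = 3) on the log2 scale of the deposited values. Crease at 12.44 ± 0.130 (n = 3) and root at 12.11 ± 0.0643 (n = 3) came next, and flag leaf at stage 85 was lowest at 9.77 ± 0.337 (n = 3). Within an array, the 3 prime value lay on average at the 93.9th percentile of the tested probe sets in flag leaf at stage 85 and at the 99.6th in stem at stage 45. The moderated F statistic of limma over the 16 groups was 36.6 for the 3 prime probe set (adjusted p = 5.15e-17), 29.9 for the middle one (adjusted p = 1.28e-15) and 30.6 for the 5 prime one (adjusted p = 9.16e-16). Differences among the 16 groups passed the same test for 81.7% of the tested probe sets, so a pass alone is common on these arrays. The span from the lowest to the highest group mean was 3.11 for the 3 prime probe set, 4.07 for the middle and 4.79 for the 5 prime, against a median span of 1.295 over the tested probe sets. Because these are bulk tissues, fewer cells of a type and less RNA per cell cannot be told apart.

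**Figure D1:**
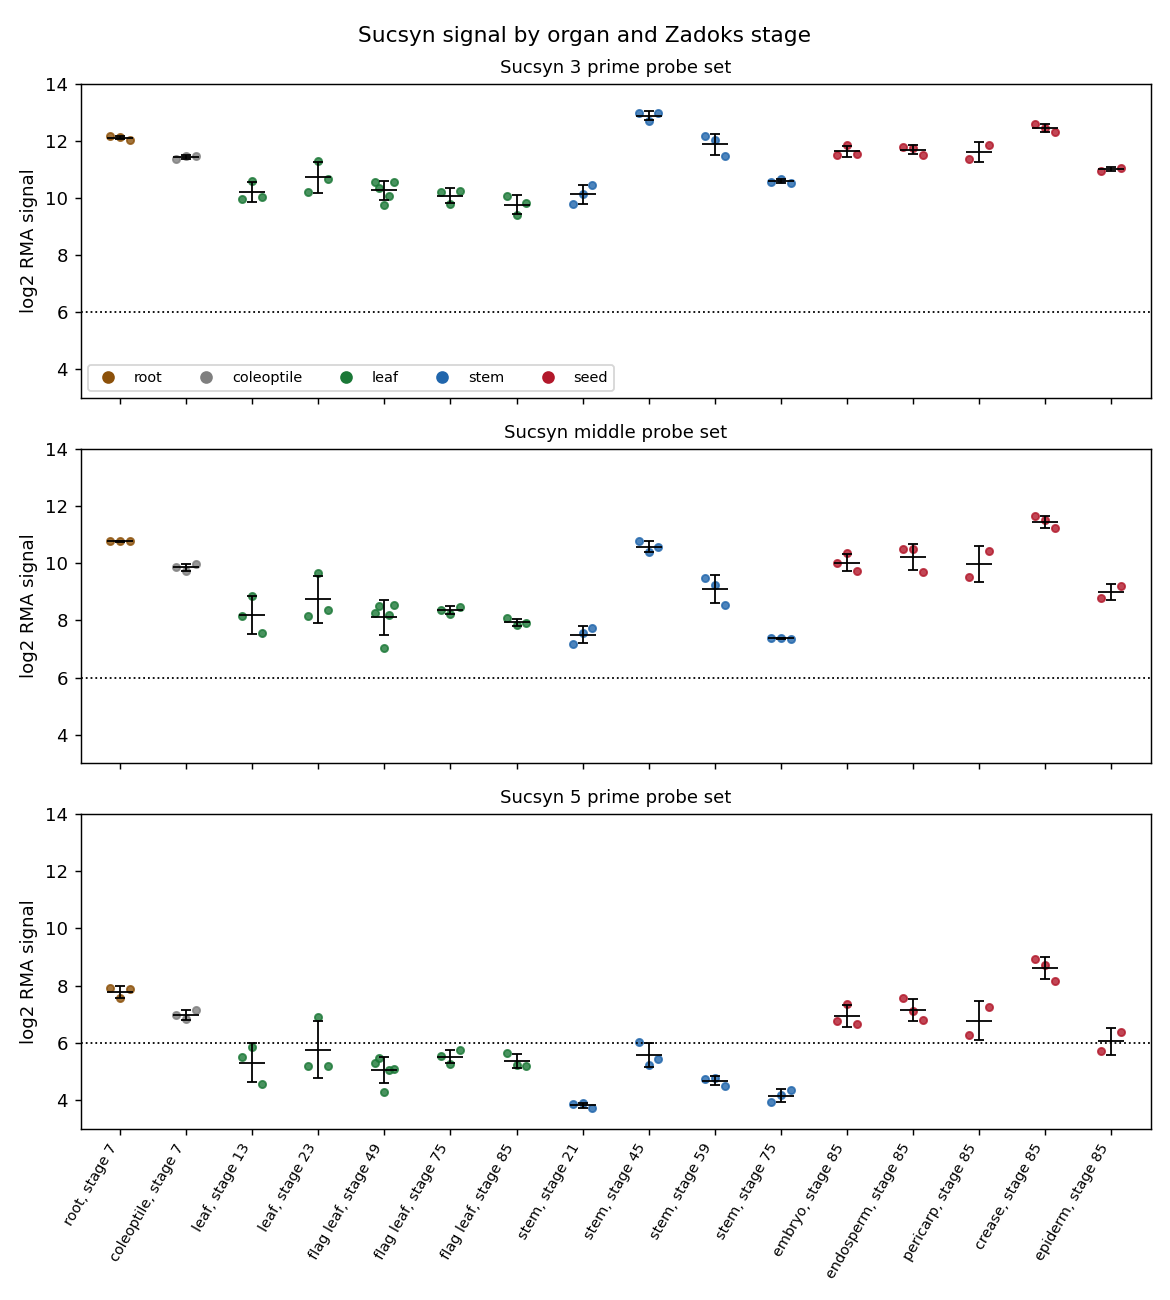
Sucsyn signal (deposited log2 values) in the 16 groups, with 1 panel each for the 3 prime, middle and 5 prime probe sets. Points are arrays coloured by organ, bars are the mean ± SD, and the dotted line is the background level of 5.99. The 3 prime points run from 9.41 to 12.97, and most 5 prime points of leaf and stem lie under the line.

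The order of the 16 groups depended in part on the probe set. At the 3 prime end the order began with stem at stage 45, crease and root. At the middle it began with crease, root and stem at stage 45, with means of 11.45 ± 0.214, 10.77 ± 0.0115 and 10.58 ± 0.185. At its 5 prime end the transcript was highest in crease at 8.61 ± 0.390, then in root at 7.78 ± 0.199 and endosperm at 7.16 ± 0.387 (n = 3 each). The lowest groups were flag leaf at stage 85 at the 3 prime end, stem at stage 75 at the middle (7.38 ± 0.02) and stem at stage 21 at the 5 prime end (3.82 ± 0.0850). Crease and root thus stood high by each probe set. Stem at stage 45 led by the 3 prime probe set and came after crease and root by the middle one, and the 5 prime order among leaf and stem groups is one of values mostly under background. The highest and the lowest group of each probe set stayed the same with arrays centred on their median, quantile normalized or centred on spikes, although root took second place at the 3 prime end with spike centring. The spikes used for centring were the hybridization controls bioB, bioC, bioD and cre, with 27 probe sets.

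Between these extremes the 3 prime means were, from high to low, 11.87 ± 0.372 in stem at stage 59, 11.68 ± 0.157 in endosperm, 11.63 ± 0.203 in embryo, 11.60 ± 0.346 in pericarp, 11.43 ± 0.0551 in coleoptile and 11.01 ± 0.0636 in epiderm. Below 11 came leaf at stage 23 (10.72 ± 0.537), stem at stage 75 (10.58 ± 0.0656), flag leaf at stage 49 (10.26 ± 0.345), leaf at stage 13 (10.20 ± 0.351), stem at stage 21 (10.13 ± 0.330) and flag leaf at stage 75 (10.08 ± 0.261). All leaf groups and the youngest and oldest stem thus made up the lower end. The middle probe set gave 10.23 ± 0.456 in endosperm, 10.02 ± 0.306 in embryo, 9.97 ± 0.622 in pericarp, 9.86 ± 0.117 in coleoptile, 9.09 ± 0.496 in stem at stage 59 and 9.0 ± 0.283 in epiderm. It gave 8.73 ± 0.810 and 8.19 ± 0.655 in leaf at stages 23 and 13, then 8.35 ± 0.132, 8.11 ± 0.618 and 7.94 ± 0.122 for the flag leaf of stages 75, 49 and 85, and 7.49 ± 0.296 in stem at stage 21. Here every seed group except epiderm stood above coleoptile. The 5 prime probe set gave 6.97 ± 0.160 in coleoptile, 6.93 ± 0.386 in embryo, 6.77 ± 0.679 in pericarp and 6.05 ± 0.467 in epiderm. It gave 5.76 ± 0.999 and 5.31 ± 0.671 in leaf at stages 23 and 13. For the flag leaf of stages 75, 85 and 49 it gave 5.51 ± 0.235, 5.35 ± 0.246 and 5.04 ± 0.459. In stem at stages 45, 59 and 75 it gave 5.58 ± 0.415, 4.67 ± 0.150 and 4.15 ± 0.217, all but 1 array being under the background. Here n was 5 for flag leaf at stage 49, 2 for pericarp and epiderm and 3 for the rest.

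Most neighbours in these orders did not differ beyond their spread. The pairs come from sorting the same group means, which keeps their differences small by choice, and the intervals are not adjusted for the number of pairs. For the 3 prime probe set the 95% interval of the difference included 0 for 15 of 15 neighbouring pairs. Stem at stage 45 stood above crease by 0.43 (interval -0.02 to 0.88), although no array of one overlapped the other. At the middle the interval included 0 for 13 of 15 pairs. The exceptions were crease over root, by 0.69 (0.03 to 1.35), and coleoptile over stem at stage 59, by 0.77 (0.11 to 1.43). The 5 prime end had crease over root, by 0.83 (0.14 to 1.51), as its exception, and 14 of 15 intervals included 0. Arrays of neighbouring groups overlapped in 12 of 15 pairs at each probe set.

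The 5 prime probe set was read at or below the array's background in much of the plant. The background was set at 5.99, the 95th percentile of 64 probe sets made for foreign reporter genes. The 5 prime value was at or below it on 28 of 48 arrays, and the middle and 3 prime values on 0. These 28 were 16 of 17 leaf arrays, 11 of 12 stem arrays and 1 of 2 epiderm arrays. In root, coleoptile, embryo, endosperm, pericarp and crease every 5 prime value was above it. Differences at the 5 prime end that involve leaf, stem or epiderm are therefore given as fitted values and not as folds.

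In the stem, Sucsyn rose steeply from stage 21 to stage 45 and fell after it. At the 3 prime end the arrays of stage 21 read 9.8, 10.14 and 10.46, and those of stage 45 read 12.97, 12.69 and 12.96. Stage 59 read 12.15, 12.02 and 11.45, and stage 75 read 10.57, 10.65 and 10.52. No array of a stage overlapped the next one, and stage 75 ended near the level of stage 21. At the middle probe set the arrays read 7.17, 7.56 and 7.75 at stage 21, then 10.77, 10.4 and 10.58 at stage 45. They read 9.48, 9.25 and 8.53 at stage 59 and 7.4, 7.38 and 7.36 at stage 75, again with no overlap between successive stages. At the 5 prime end they read 3.85, 3.88 and 3.72, then 6.04, 5.24 and 5.45, then 4.75, 4.77 and 4.5, and at last 3.92, 4.18 and 4.35, with 1 value above the background.

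A probe set was called when its Benjamini-Hochberg adjusted limma p was under 0.05 and its log2 difference at least 1, in a fit over all 61115 tested and 25 control probe sets. From stage 21 to stage 45 the 3 prime level rose by 2.74 (SE 0.223, adjusted p = 1.26e-12), a fold of 6.68, where 12.6% of the tested probe sets were called. The middle probe set rose by 3.09 (SE 0.325, adjusted p = 6.58e-10), a fold of 8.51. The fitted 5 prime rise was 1.76 (adjusted p = 7.03e-05), with 1 of the 6 arrays above background. All 3 probe sets were thus called in this step.

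From stage 45 to stage 59 the 3 prime level fell by 1.0 (adjusted p = 0.00272), which lies on the fold minimum, and 3.05% of the tested probe sets were called. The size missed that minimum at 0.79 without replicate 3 of stage 59, at 0.95 without replicate 1 of stage 45 and at 0.96 without its replicate 3. With arrays centred on the hybridization spikes the difference was -0.83 and not called, and array weights gave -0.93, under the minimum. It fell by 1.5 at the middle (adjusted p = 0.00214), and the 5 prime difference of -0.90 was not called (adjusted p = 0.104). From stage 59 to stage 75 the 3 prime level fell by 1.29 (adjusted p = 1.11e-05), a fold of 2.45, beside 14% of tested probe sets called. The middle fell by 1.71 (adjusted p = 5.41e-05), and the 5 prime difference of -0.52, with both stages under the background, was not called (adjusted p = 0.308). The stem course was therefore called at the 3 prime and middle probe sets in each of its 3 steps.

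The leaf stayed in the lower part of the range, with no called step in the values as deposited. At the 3 prime end the arrays read 9.96, 10.6 and 10.03 at stage 13 and 10.21, 11.28 and 10.67 at stage 23. The flag leaf of stage 49 read 10.57, 10.35, 9.76, 10.08 and 10.56. It read 10.21, 9.78 and 10.25 at stage 75 and 10.08, 9.41 and 9.81 at stage 85. The arrays of each stage overlapped those of the next. The middle probe set gave its lowest leaf value, 7.04, on replicate 3 of flag leaf at stage 49, and its highest, 9.66, on replicate 2 of leaf at stage 23.

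Leaf at stage 23 minus leaf at stage 13 was 0.52 at the 3 prime end (adjusted p = 0.175), 0.54 at the middle (adjusted p = 0.389) and 0.45 at the 5 prime end (adjusted p = 0.524), where 1.97% of tested probe sets were called. Flag leaf at stage 49 minus leaf at stage 23 was -0.46 (adjusted p = 0.187; 2.27% called), with -0.63 at the middle (adjusted p = 0.225) and -0.72 at the 5 prime end (adjusted p = 0.166). With spike centring this 5 prime difference was -1.07 and called (adjusted p = 0.0486), with 7 of its 8 arrays under the background. On all tested probe sets, 2 of the 48 arrays correlated better with another group than with their own, and both belonged to leaf at stage 23, at 0.959 with their own group and 0.967 with leaf at stage 13 for the first, and at 0.957 and 0.971 (flag leaf at stage 75) for the second. The second array of that group was the highest of its group at all 3 probe sets, at 11.28, 9.66 and 6.91. Without it, the 5 prime difference between stages 23 and 13 was -0.13 instead of 0.45.

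Within the flag leaf, stage 75 minus stage 49 was -0.18 at the 3 prime end (adjusted p = 0.567; 4.18% called), 0.25 at the middle (adjusted p = 0.606) and 0.48 at the 5 prime end (adjusted p = 0.288). Stage 85 minus stage 75 was -0.31, -0.42 and -0.17 in the same order, each with an adjusted p of 0.999, beside 0.0196% of tested probe sets called, or 12 in all. The labels describe the flag leaf of stages 75 and 85 as senescing, which could not be checked here, and no Sucsyn change between these stages was called. The intervals behind these values are wide, with a standard error of 0.223 at the 3 prime end for 3 arrays against 3, and small changes were not detectable.

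The stem and the leaf were set against each other at near stages and in their late change. Stem at stage 45 was higher than flag leaf at stage 49 by 2.61 at the 3 prime end (adjusted p = 4.39e-14; 18.8% called) and by 2.48 at the middle (adjusted p = 3.09e-09). At the 5 prime end the difference of 0.54 was not called (adjusted p = 0.145), and with spike centring it was 1.23 and called (adjusted p = 0.00344), with 1 of the 8 arrays above background. At stage 75, stem minus flag leaf was 0.50 at the 3 prime end (adjusted p = 0.10; 9.78% called), -0.97 at the middle (adjusted p = 0.0234, under the fold minimum) and -1.36 at the 5 prime end (adjusted p = 0.00209, called, with both groups under the background). The 5 prime values give no order of stem and leaf at that stage, and the 3 prime and middle differences were not called. Without replicate 2 of flag leaf at stage 75 the middle difference was -1.045 and called (adjusted p = 0.0371).

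The leaf change from stage 49 to 75 minus the stem change from stage 59 to 75 was 1.11 at the 3 prime end (SE 0.299, adjusted p = 0.00533; 13% called) and 1.95 at the middle (adjusted p = 0.000787). The 5 prime difference was 1.0 (adjusted p = 0.124, not called), and 1.69 with spike centring (adjusted p = 0.0168, called), again from values under background. The 3 prime value was 0.97 without the first stem array of stage 59 and 0.98 without the third flag leaf array of stage 49, both under the fold minimum, as was 0.95 with quantile normalization. The median of this difference over all tested probe sets was -0.109.

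**Figure D2:**
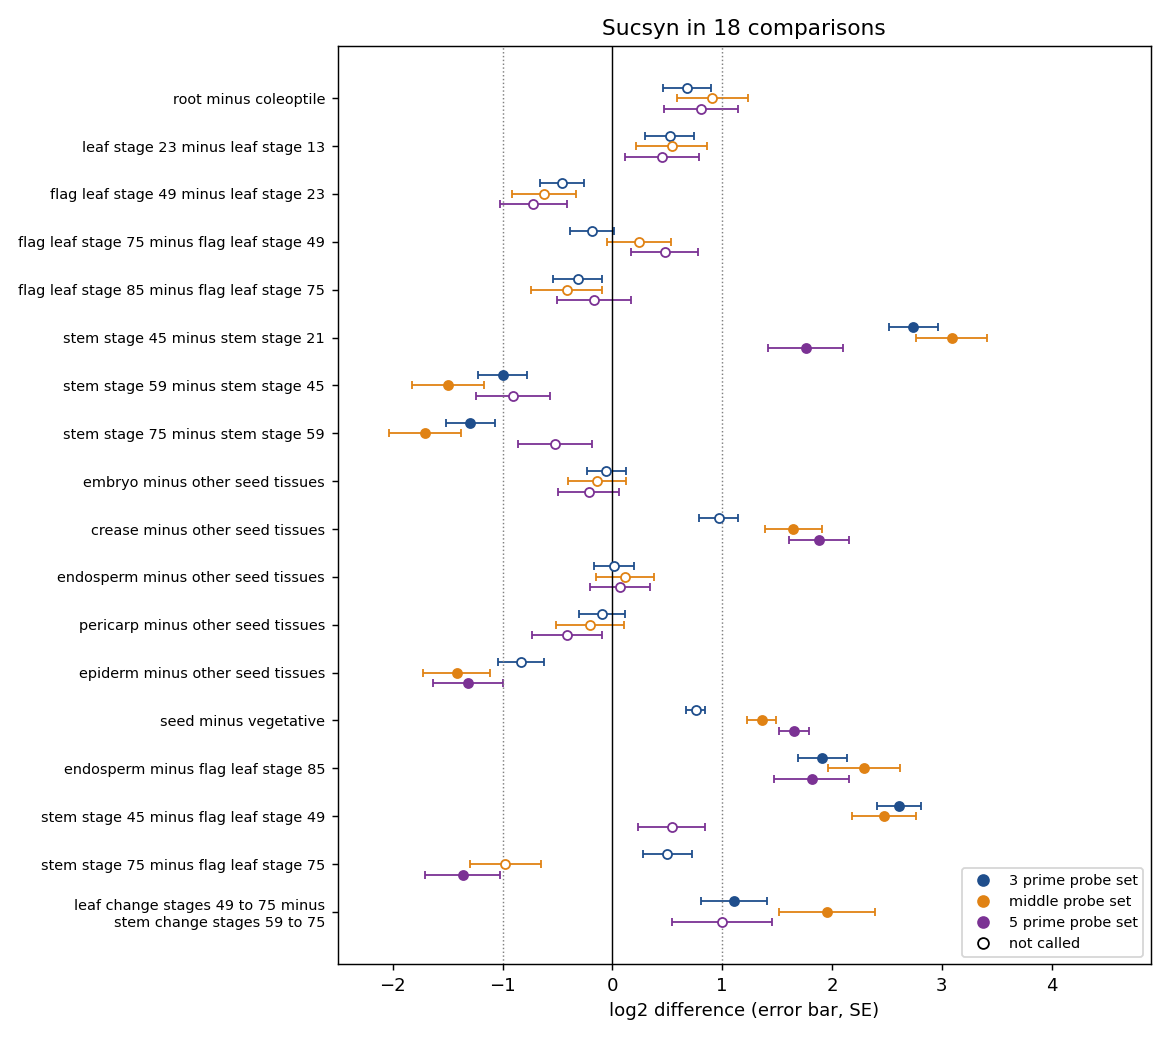
Log2 difference of each Sucsyn probe set in the 18 comparisons. Bars are the SE, filled points were called, open points were not, and dotted lines mark the fold minimum. The stem from stage 21 to 45 has the values farthest from 0, at 2.74 for the 3 prime and 3.09 for the middle probe set.

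In the seed at soft dough, Sucsyn stood highest in the crease and lowest in the epiderm. At the 3 prime end the crease read 12.57, 12.45 and 12.31, and the epiderm 10.96 and 11.05. Embryo read 11.49, 11.86 and 11.53, endosperm 11.79, 11.75 and 11.5, and pericarp 11.35 and 11.84. Every crease array was above, and every epiderm array below, the arrays of the other 3 tissues, which overlapped among themselves. At the middle probe set the crease read 11.64, 11.5 and 11.22 and the epiderm 8.8 and 9.2. The 5 prime values were 8.92, 8.73 and 8.17 in the crease and in the epiderm 5.72 and 6.38. There the epiderm overlapped the pericarp, which read 6.29 and 7.25.

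Against the mean of the other 4 seed tissues, the crease was higher by 0.97 at the 3 prime end (SE 0.180, adjusted p = 2.62e-05), just under the fold minimum, and 14.9% of tested probe sets were called. It was called at the middle, by 1.65 (adjusted p = 1.95e-06), a fold of 3.14, and at the 5 prime end, by a fitted 1.88 (adjusted p = 3.53e-07). The 3 prime difference passed the fold minimum without the third crease array and without the second pericarp array, at 1.03 in each case. The epiderm was lower than the other tissues, at -0.83 at the 3 prime end (adjusted p = 0.00212, under the fold minimum; 11.5% called), -1.42 at the middle (adjusted p = 0.000363) and a fitted -1.32 at the 5 prime end (adjusted p = 0.00137), where 1 of the 2 epiderm arrays was under the background. Without the first epiderm array the 5 prime difference was -0.99 and was not called (adjusted p = 0.122), with the lone epiderm array assumed to vary like the other groups.

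Embryo, endosperm and pericarp did not differ from the mean of the others by a called amount. At the 3 prime end the difference was -0.05 for embryo (adjusted p = 0.861; 16.4% called), 0.01 for endosperm (adjusted p = 0.973; 7.06% called) and -0.09 for pericarp (adjusted p = 0.850; 7.97% called). The middle and 5 prime differences of these tissues lay between -0.42 and 0.12, all with adjusted p of 0.453 or more. The endosperm, the starch store of the grain, was thus near the middle of the seed tissues at the 3 prime end.

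Crease and epiderm shared a method of extraction, and so did embryo, endosperm and pericarp. Within the column kit, crease stood above epiderm by 1.44 at the 3 prime end (adjusted p = 9.43e-06), by 2.45 at the middle and by 2.56 at the 5 prime end, all called. Among the 3 tissues of the guanidine hydrochloride method, embryo minus the others was -0.01, endosperm 0.07 and pericarp -0.06 at the 3 prime end, with none called. The order of crease over epiderm was therefore measured within 1 method.

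Over the plant, the mean of the 5 seed groups stood above that of the 11 vegetative groups by 0.76 at the 3 prime end (SE 0.0901, adjusted p = 1.83e-09), under the fold minimum, beside 14.3% of tested probe sets called. It was called at the middle, by 1.36 (adjusted p = 9.87e-12), and at the 5 prime end, by a fitted 1.66 (adjusted p = 1.36e-13). These larger values hold a difference between probe sets as well as one of level. The 3 prime value exceeded the 5 prime value by 4.57 in the seed groups and by 5.46 in the vegetative groups, which include stem. Arrays of both sides overlapped at each probe set, among them those of root, coleoptile and replicate 2 of leaf at stage 23, and at the 3 prime end every array of stem at stage 45 was above every seed array. Within the column kit, the mean of crease and epiderm stood above the mean of the leaf and stem groups by 1.0 at the 3 prime end (adjusted p = 3.77e-08), called. Epiderm alone, at 11.01, lay below stem at stages 45 (12.87) and 59 (11.87). The stem RNA also had a further clean-up after the kit.

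Endosperm was higher than flag leaf at stage 85, a tissue of the same stage, by 1.91 at the 3 prime end (adjusted p = 2.76e-09; 19.2% called) and by 2.29 at the middle (adjusted p = 2.11e-07), folds of 3.77 and 4.89. At the 5 prime end every flag leaf array was under the background, and endosperm was at least 2.24-fold higher (adjusted p = 2.77e-05 for the fitted difference). These groups differ in the method of extraction as well as in the tissue, and these cannot be told apart.

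Root and coleoptile, the only pair from the seedling, read 12.16, 12.14 and 12.04 against 11.37, 11.47 and 11.46 at the 3 prime end, without overlap. Root was higher by 0.68 (adjusted p = 0.0190) at the 3 prime end, by 0.91 at the middle (adjusted p = 0.0337) and by 0.81 at the 5 prime end (adjusted p = 0.0796). None of these was called, and 13.6% of tested probe sets were. With spike centring, which moved the median of all tested probe sets by 0.35 in this comparison, all 3 passed the fold minimum and were called, at 1.03, 1.26 and 1.16. Both come from another cultivar and another method than the rest, so their place among the other organs cannot be told apart from cultivar or method.

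Across the 18 comparisons, the 3 probe sets pointed in 1 direction in 16. The exceptions were flag leaf from stage 49 to 75 and stem against flag leaf at stage 75. The 16 include small differences that were not called, as for embryo, endosperm and pericarp, some of which changed sign without single arrays. All 3 probe sets were called in 2 comparisons, 1 or 2 of them in 8 and none in 8. By probe set, 6 comparisons were called at the 3 prime end, 9 at the middle and 6 at the 5 prime end. Of all tested probe sets, 0.0196% to 19.2% were called in a comparison. The comparisons share groups, so these counts are not independent. Within groups, the lowest array was the same at all 3 probe sets in 9 of 16 groups and the highest in 10 of 16. In a group of 2 arrays a shared lowest array means a shared highest one. These counts were not set against chance or against other probe sets.

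The gap between the 3 prime and 5 prime values is a measure apart from the level. Labelling starts at the 3 prime end of the transcript, and control genes carry a probe set at each end so that the evenness of the labelled copies can be read. Probes also differ in how strongly they bind, so only the change of the gap between groups is read here, not its size. For Sucsyn the mean gap was 4.33 in root, 4.46 in coleoptile, between 4.42 and 5.23 in the 5 leaf groups and between 3.84 and 4.96 in the 5 seed groups. In the stem it was 6.32 ± 0.398, 7.30 ± 0.319, 7.20 ± 0.229 and 6.43 ± 0.242 in the order of its 4 stages (n = 3 each).

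The stem stood apart on every array. The 12 stem arrays had gaps of 5.95 to 7.51 and the other 36 arrays gaps of 3.65 to 5.49, with no overlap. The F statistic of the gap over 16 groups was 33.6, with a permutation p of 1e-05, the smallest that 100000 resamples of the array labels can give. Without the 4 stem groups it was 4.60 (permutation p = 0.00073), and over the 6 groups with every 5 prime value above background it was 5.73 (permutation p = 0.00791). Outside the stem the gaps thus still differed, with a smaller F.

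The wider stem gap had parts on both sides of the middle probe set. From the 3 prime end to the middle, the stem group means were 2.29 to 3.20 against 0.99 to 2.16 elsewhere. Single arrays overlapped there, at 2.2 to 3.27 against 0.93 to 2.72. From the middle to the 5 prime end the stem means were 3.68, 5.01, 4.41 and 3.23 in the order of stages, and single arrays overlapped, at 3.01 to 5.16 in stem and 2.44 to 3.45 elsewhere. The 5 prime means of the stem groups, 3.82 to 5.58, lay under the background level of 5.99. Values under it may not follow the amount of transcript, which limits what the gap can show.

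**Figure D3:**
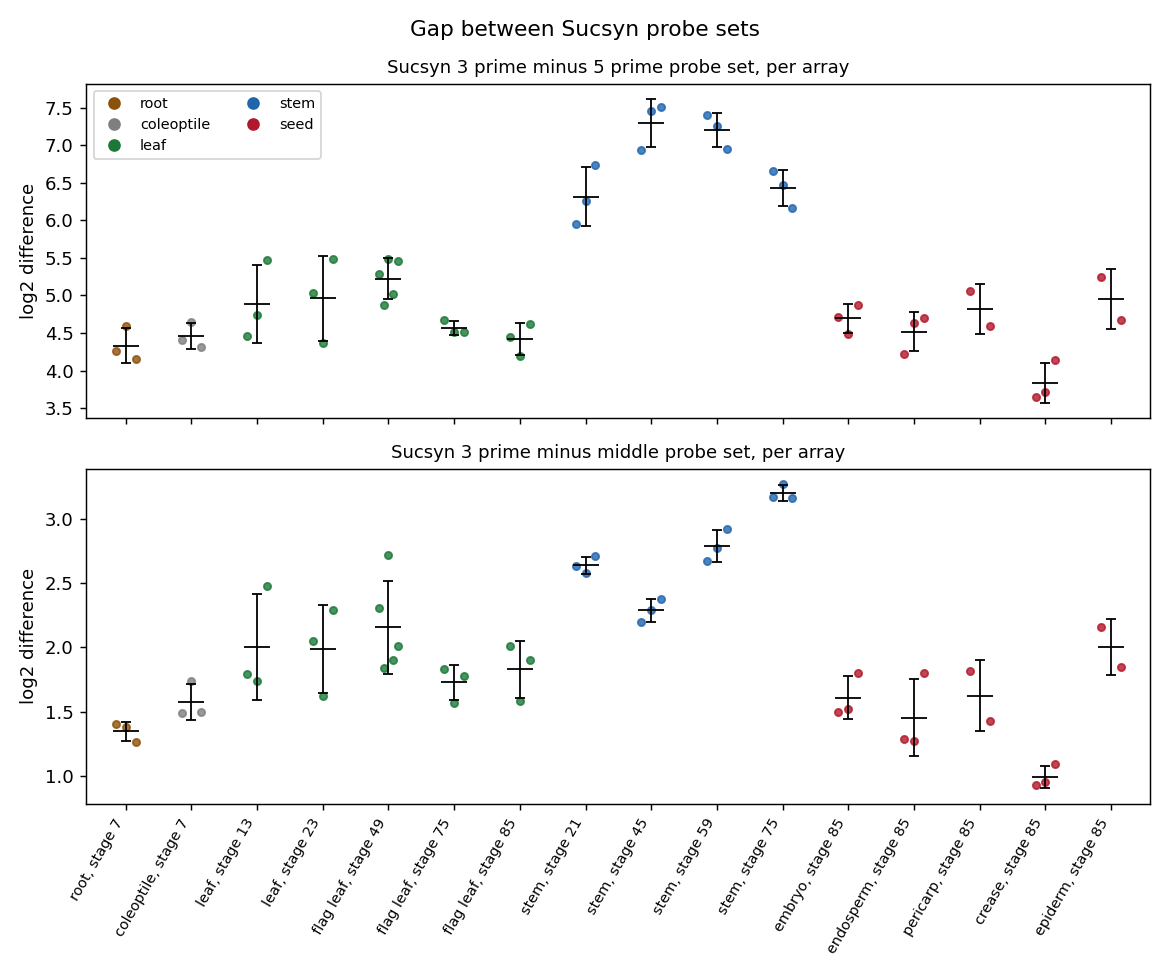
Log2 difference between Sucsyn probe sets on each array, by group, as 3 prime minus 5 prime (upper panel) and 3 prime minus middle (lower panel). Points are arrays coloured by organ and bars are the mean ± SD. In the upper panel the 12 stem arrays lie between 5.95 and 7.51 and all other arrays between 3.65 and 5.49.

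Other transcripts with probe sets at both ends give a view of the same arrays. Averaged over groups, the stem gap of Sucsyn was 2.17 above that of the other groups. G-6-PDH, glucose-6-phosphate dehydrogenase of the pentose phosphate pathway, had stem group means of 2.18 to 2.73 against 1.19 to 2.12. Ubiquitin, the tag for protein breakdown, had -1.49 to -1.29 against -2.72 to -1.59. A pair of bacterial transcripts that serve as added spikes also had wider stem gaps: thr at 1.38 to 1.83 against 0.317 to 1.12, and dap at 1.36 to 1.60 against 0.263 to 1.15. These are not the hybridization spikes on which arrays were centred. For thr, single arrays did not overlap (1.24 to 1.97 against 0.18 to 1.15). They did for dap (1.25 to 1.64 against 0.11 to 1.32), G-6-PDH (2.07 to 3.01 against 1.0 to 2.32) and Ubiquitin (-1.6 to -1.23 against -3.09 to -1.44). The spikes lys and phe and the wheat genes actin, gapdh and CYP86-TA had overlapping group means, and ef1a had lower values in stem, at 0.38 to 0.85 against 0.97 to 1.54. The 3 prime value was above background on 0 of 48 arrays for ef1a and gapdh, on 1 for actin and on 25 for CYP86-TA, so their gaps say little. For G-6-PDH the 5 prime value was above it on 36 of 48 arrays, for thr and phe on 42 and for lys on 34. Ubiquitin and dap were above it at both ends on all 48. The stem RNA had a clean-up after the column kit. Embryo, endosperm and pericarp RNA also had a clean-up, after another extraction, and their Sucsyn gaps were 4.70, 4.52 and 4.83. The part of RNA quality, labelling or clean-up in the Sucsyn values of the stem was not tested.

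**Figure D4:**
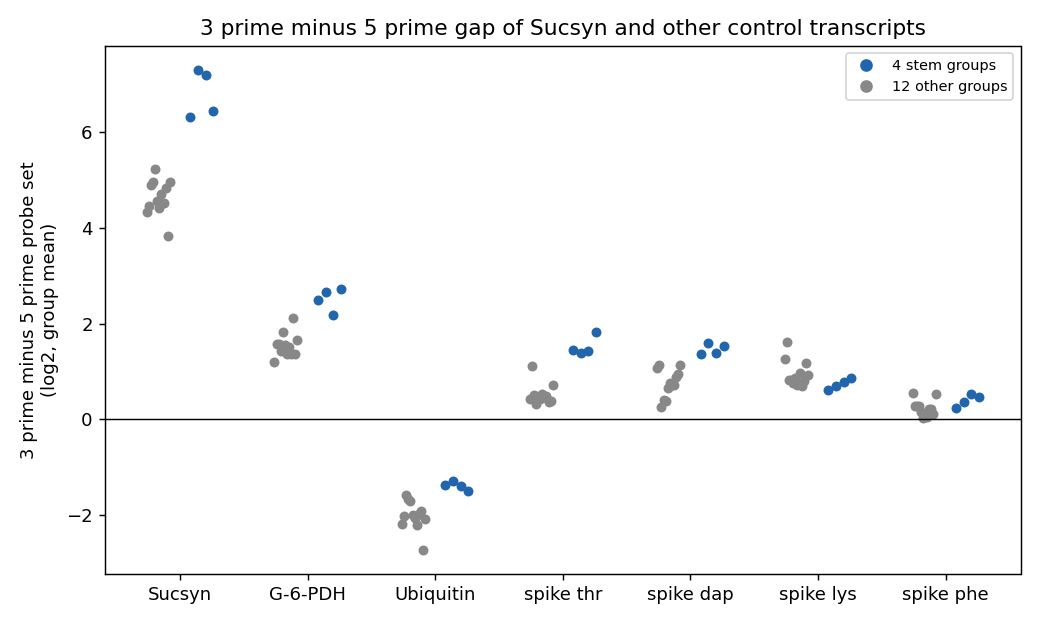
Gap between 3 prime and 5 prime values (log2) of Sucsyn, of 2 other wheat control genes and of 4 spikes. Each point is a group mean, with the 4 stem groups in blue and the 12 other groups in grey. The stem groups lie above the others for Sucsyn, G-6-PDH, Ubiquitin, thr and dap and overlap them for lys and phe.

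The gap also changed within several comparisons of level. From stage 21 to 45 the stem gap widened by 0.98, without overlap of arrays, with the 5 prime value under background on 5 of the 6 arrays. From stage 59 to 75 it narrowed by 0.77, also without overlap and with every 5 prime value under background. Such values limit what the gap can show. Between stem and leaf it differed by 2.07 (stage 45 against flag leaf at stage 49) and by 1.86 (stage 75 for both), which is more than the 3 prime difference of 0.50 at stage 75. Most 5 prime values of the first pair and all of the second were under background. In the crease the gap was 0.91 narrower than in the other seed tissues, without overlap. In the flag leaf it narrowed by 0.66 from stage 49 to 75, again without overlap and with every 5 prime value under background. Across all seed tissues, only in epiderm was a 5 prime value under it. Over the seed groups the gap averaged 4.57, against 5.46 over the vegetative groups with stem among them, and arrays of both sides overlapped. No test was run on these single differences of the gap, which are given as values. For 3 arrays against 3, as in the steps of stem, an exact permutation test cannot go below 0.10.

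Over the 16 group means, the 3 prime and middle values had a Pearson r of 0.901 (Spearman 0.891), the middle and 5 prime values 0.880 (0.850), and the 3 prime and 5 prime values 0.615 (0.606). Over the 12 groups without stem these were 0.986, 0.991 and 0.960 for Pearson r, and 0.972, 0.958 and 0.916 for Spearman. These are descriptions over points that share arrays and normalization. The 3 probe sets of 1 transcript thus ordered the non-stem groups much alike, though not within the leaf. Flag leaf at stage 49 was above stage 75 at the 3 prime end (10.26 and 10.08). It was below stage 75 at the 5 prime end (5.04 and 5.51), where both were under background.

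The other 7 control genes of wheat were set beside Sucsyn in the same fit. In the stem from stage 21 to 45, G-6-PDH was the single other gene called, up by 1.28. In the crease it was also the single one called, at -1.68, where Sucsyn was higher. Stem at stage 45 against flag leaf at stage 49 had 2 other genes called up, G-6-PDH by 2.71 and the 18S ribosomal RNA by 3.88. In seed against vegetative groups, 18SrRNA was the single one called, at -2.03. Of all tested probe sets, 12.6%, 14.9%, 18.8% and 14.3% were called in these comparisons, in the order given. Counts this small out of 7 do not set the control genes apart from those shares. In the steps of leaf and in the later steps of stem, 0 of 7 were called, and the 8 remaining comparisons had 1 or 2 called of 7, apart from endosperm against the other seed tissues with 0. The calls in these 8 fell on G-6-PDH, 18SrRNA and CYP86-TA, a name of the cytochrome P450 family. The share of tested probe sets called was 7.06% to 19.2% in these 8, and 0.0196% to 14% in the steps of leaf and later stem.

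Transcripts with the most similar profile were sought by Pearson correlation with the 3 prime probe set over the 16 group means, among 31268 tested probe sets with a group mean above background. The highest was the probe set that the annotation pairs with LOC543390, with r = 0.971 (Spearman 0.968). Its group means ran from 7.98 in flag leaf at stage 85 to 11.30 in stem at stage 45, and Sucsyn lay 1.57 to 2.34 above it in every group. Without stem the correlation was 0.966, and with the middle and 5 prime Sucsyn probe sets it was 0.839 and 0.515 over all groups. The next 4 probe sets, which the annotation does not name, had r of 0.943, 0.914, 0.912 and 0.903. Across the 31268, the median r was 0.099 and the 95th percentile 0.684, with 5 above 0.9 and 299 above 0.8. Whether these probe sets share sequence with the Sucsyn target was not tested.

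**Figure D5:**
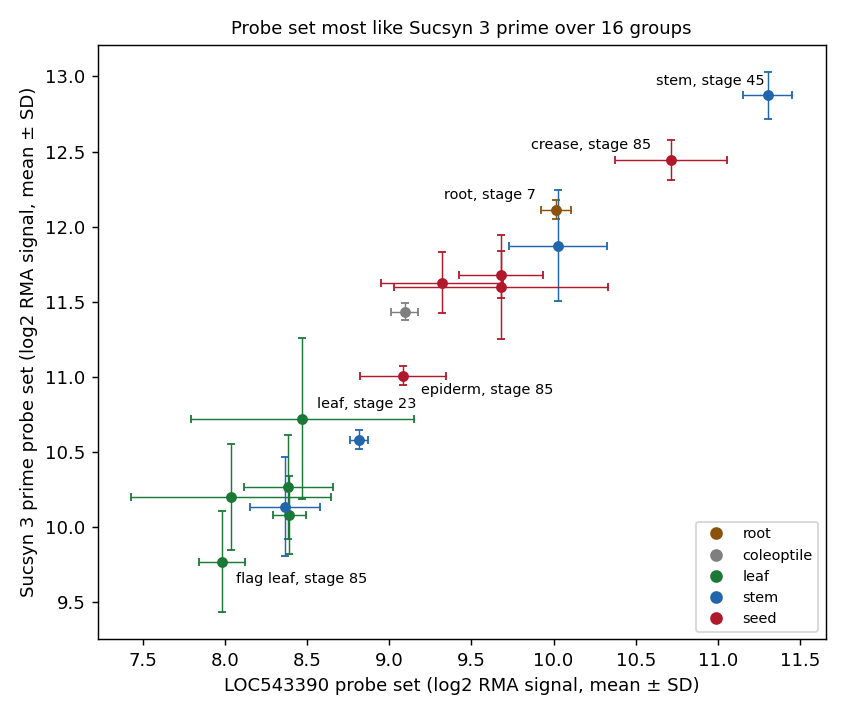
Group mean ± SD (log2) of the Sucsyn 3 prime probe set (vertical axis) against the LOC543390 probe set (horizontal axis), coloured by organ. The 16 groups run from flag leaf at stage 85 at the lower left (7.98 on the horizontal axis) to stem at stage 45 at the upper right (11.30).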

How the data were processed

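The deposited table holds log2 values of RMA (robust multi-array averaging), as the submitters' processing notes name it. No source used here names the software or its background step, or states the log base, which was read as 2. The values run from 1.92 to 15. Since RMA gives all arrays much the same distribution, a shift shared by most transcripts would not be seen, and signal flattens at the top.

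All 48 arrays entered 1 limma fit (version 3.58.1, R 4.3.3) with group means, 32 residual and 5.59 prior degrees of freedom, and p-values adjusted over the 61115 tested and 25 wheat-gene control probe sets together. The 111 AFFX and 64 reporter probe sets were outside the tested set. The 3 prime probe set was the reference for level, and the gap was tested by permuting array labels. The fit was checked on simulated data. Of the tested probe sets, 59842 have no gene symbol in the annotation used here, so a list of sucrose-use genes could not be matched. The most similar 5 probe sets are named by correlation. Alternatives covered scaling (median, quantile, spikes), a low-mean filter, prior, array weights, thresholds, a replicate block, the groups fitted, leaving out arrays and, chosen after seeing the data, fits within 1 method of extraction and other forms of the gap. Members and lists were chosen with earlier results of these data known. Precision is limited by 2 to 5 arrays per group.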

Additional observations from a re-analysis of the deposited data

Results flagged for a closer look

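At the middle probe set, the third array of flag leaf at stage 49 read 7.04 against 8.18 to 8.55 on the other 4. Its distance to the nearest of them was 0.755 of the group's range, above the critical value of 0.71 for 5 arrays. Chance gives such a flag in about 1 in 20 groups.

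The leaf change from stage 49 to 75 and the stem change from stage 59 to 75 differed by 1.11 at the 3 prime probe set (limma adjusted p = 0.00533) and by 1.95 at the middle (adjusted p = 0.000787), since the stem fell and the leaf did not pass the test. At the 5 prime probe set the difference was 1.0 (adjusted p = 0.124).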

How the results depend on the processing

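Values are log2 differences at the 3 prime probe set unless another is named. With quantile normalization the crease difference passed the fold minimum at 1.02, the difference between leaf and stem changes missed it at 0.95, and endosperm at the 5 prime end turned to -0.036. Centring on the hybridization spikes adds 1 shift to all probe sets of a comparison and moved the median of all tested by up to 0.69. Root minus coleoptile (1.03, with 1.26 at the middle and 1.16 at the 5 prime end) and seed minus vegetative (1.01) then passed the fold minimum. The stem step from 45 to 59 (-0.83) was lost with this centring. Under it the 5 prime end was also called for flag leaf at 49 minus leaf at 23 (-1.07), stem at 45 minus flag leaf at 49 (1.23) and the difference between leaf and stem changes (1.69), all mostly from values under background. Under the same centring flag leaf from 49 to 75 turned to 0.23, and embryo to 0.36, with 0.28 at the middle and 0.20 at the 5 prime end. Array weights gave -0.93 for the stem step from 45 to 59, under the minimum. With no fold minimum, root minus coleoptile (0.68), crease (0.97), epiderm (-0.83) and seed minus vegetative (0.76) were called. At the middle, root minus coleoptile (0.91) and stem minus flag leaf at stage 75 (-0.97) were then called as well. The mean of the 3 probe sets gave 1.5 for crease, -1.19 for epiderm and 1.26 for seed minus vegetative, all called, and turned flag leaf from 49 to 75 to 0.18 and stem minus flag leaf at stage 75 to -0.61. Within 1 method of extraction, chosen after seeing the data, crease minus epiderm (1.44) and seed minus vegetative (1.0) were called. The value of -1.44 for epiderm minus crease is the same comparison with its sign turned, not a further call. Within that method crease and epiderm were set only against each other, so their differences from the mean of the other seed tissues were not tested again. Seed stood there for crease and epiderm alone, against the leaf and stem groups. Leaving out single arrays gave -1.14 to -0.79 for the stem step from 45 to 59, 0.97 to 1.32 for the difference between leaf and stem changes and 0.90 to 1.03 for crease. The same gave ranges that crossed 0, none of them called: embryo -0.17 to 0.014 (middle -0.30 to 0.0025), endosperm -0.049 to 0.10 (middle -0.021 to 0.38, 5 prime -0.13 to 0.25) and pericarp -0.34 to 0.15 (middle -0.65 to 0.24, 5 prime -0.90 to 0.063). It also gave -0.13 to 0.74 for leaf from 13 to 23 at the 5 prime end and -0.022 to 0.36 for flag leaf from 49 to 75 at the middle. The cause of these changes was not tested, beyond thresholds that the setting itself moves. Replicate numbers showed no pairing over the samples as a whole: the median correlation of deviations was 0.00112 over 331 pairs with the same number and -0.00174 over 746 with different numbers. Single correlations exceeded 0.1 in 15 and 22 of these pairs, with highest values of 0.272 and 0.261. Pairing within a subset of groups was not tested. With the replicate number as a block, the gap F was 35.5 and 0 of 56 results changed their call. The gap F was 31.9 with quantile normalization, 24.4 for middle minus 5 prime, 17.9 for 3 prime minus middle and 19.3 to 34.8 without 1 replicate number, with permutation p of 2e-05 or less. Arrays number 2 to 5 per group, the 5 prime probe set is mostly under background in leaf and stem, and bright signals flatten, which limits what these values can show.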
